A study of Homo sapiens with 8 samples.

Results

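The genes described here encode the transcription factors STAT2, STAT3, STAT4, STAT5A, STAT5B and STAT6, and the data are peak lists from CUT&RUN, which cuts out DNA next to an antibody-bound protein, here RUNX1 with an HA tag. The cells were HEL, a human erythroleukemia line known for a constitutively active JAK2 kinase. A gene's span is the gene on hg38 with 20 kb added at either end, and every peak that overlapped a span was taken. The 6 genes are 6 of 20037 protein-coding genes in the annotation, and their spans held 35 of the 33478 regions formed by merging overlapping peaks of all libraries. The cells were transduced with HA-tagged RUNX1-4D, RUNX1-4A or wild-type RUNX1 (WT), or with an empty vector, and each of these 4 lines had 2 biological replicates. By the usual naming of such mutants, 4D carries aspartate and 4A alanine in place of phosphorylated serine or threonine residues. All lines were kept in 2 µg/ml puromycin, which selects the transduced cells, and the HA antibody reads only the added protein, so endogenous RUNX1 is outside the measurement. Peak lists from 6 libraries were used, and the 2 empty vector libraries enter only as the background against which the authors called peaks. Peak lists hold no expression values, so the cell line label was not checked against marker genes.

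STAT proteins wait in the cytoplasm until a cytokine receptor and its JAK kinase phosphorylate them on tyrosine, after which they pair, enter the nucleus and bind DNA. STAT5A and STAT5B carry the signals of erythropoietin and interleukin 3, STAT3 those of G-CSF and the interleukin 6 family, STAT2 that of type I interferon, STAT4 that of interleukin 12 and STAT6 that of interleukins 4 and 13. RUNX1 is a DNA-binding factor of blood cells that works with its partner CBFB and recognises short sites such as TGTGGT.

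The promoters of STAT3, STAT2 and STAT6 are printed because RUNX1 peaks lay over them and they hold a RUNX site. Each line gives the 250 bases before the RefSeq start on the gene's own strand, 5′ to 3′, and all 3 genes are on the minus strand of GRCh38.p14. They lie at chr17:42388443-42388692 (STAT3), chr12:56360108-56360357 (STAT2) and chr12:57110290-57110539 (STAT6). Capitals mark TGTGGT or TGCGGT, or their complement on the opposite strand.
STAT3: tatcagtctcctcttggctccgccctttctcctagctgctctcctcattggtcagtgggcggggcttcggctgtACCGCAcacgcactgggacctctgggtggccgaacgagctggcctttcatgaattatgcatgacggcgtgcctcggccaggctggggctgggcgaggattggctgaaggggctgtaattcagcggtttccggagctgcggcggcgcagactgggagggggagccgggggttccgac
STAT2: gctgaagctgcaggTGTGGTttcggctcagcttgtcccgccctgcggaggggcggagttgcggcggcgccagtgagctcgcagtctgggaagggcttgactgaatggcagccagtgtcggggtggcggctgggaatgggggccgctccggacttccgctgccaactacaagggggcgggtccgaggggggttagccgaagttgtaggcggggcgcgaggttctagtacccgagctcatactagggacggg
STAT6: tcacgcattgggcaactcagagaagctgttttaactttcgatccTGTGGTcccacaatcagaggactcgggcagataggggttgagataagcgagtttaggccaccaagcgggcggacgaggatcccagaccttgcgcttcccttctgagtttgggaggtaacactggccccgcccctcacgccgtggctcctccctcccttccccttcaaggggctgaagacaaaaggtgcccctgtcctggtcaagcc
The STAT3 match is TGCGGT on the opposite strand, 173 bases before the start. In STAT2 and STAT6 the match is TGTGGT on the gene's strand, 233 and 203 bases before the start. Searching both strands of the windows from 250 bases before to 50 after each start found either motif in 3 of the 9 windows of the STAT genes, against 19.0% of 22199 windows of protein-coding genes. Windows that overlapped a region called in all 6 libraries held it in 30.1% of 1753 cases, and windows that overlapped no region in 16.8% of 13961. The windows of STAT4 (2 starts), STAT5A (3 starts) and STAT5B did not contain these letters. The STAT site TTCNNNGAA was in 0 of the 9 windows, against 6.79% of all.

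The replicate 1 lists held 5358 (4D), 6266 (4A) and 6764 (WT) peaks on chromosomes 1 to 22, X and Y, and the replicate 2 lists 21122, 24251 and 25911. Within each number the 4D list was the shortest, at 0.792 (replicate 1) and 0.815 (replicate 2) times the WT length. Read depth is unknown from a peak list, so a region that a library lacks was not called at that library's depth and may still be bound. The fold enrichment over background and the −log10 q of each peak are the authors' values, and a percentile is the place of a peak's −log10 q within its own list.

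RUNX1 was called at 4 STAT genes in 4D, at 5 in 4A and at 5 in WT, counting a gene when a region called in both libraries of the line overlapped its span. By the same rule 28% (4D), 31.1% (4A) and 34.9% (WT) of all protein-coding genes were called. These shares do not adjust for span length. The spans of STAT3 (115 kb), STAT5B (129 kb) and STAT4 (162 kb) exceeded the upper quartile of all genes (105 kb), while those of STAT2, STAT5A and STAT6 did not. STAT5A was called in 4D and 4A only through a region it shares with STAT3. STAT2, STAT3, STAT5A and STAT6 were called in each line, STAT4 also in 4A, and STAT5B also in WT. STAT6 was called only through regions outside the gene, at or near the starts of its neighbours NEMP1 and NAB2. The difference between lines depended on the setting. With a minimum −log10 q of 5 the 4A count was 4, and with windows of 150 bp around summits the WT count was 4, the other lines staying as above. Regions called in all 6 libraries lay in the spans of STAT2, STAT3 and STAT6 (2 each) and of STAT5A (1, shared with STAT3), and 21% of protein-coding genes had at least 1 such region. In the single replicate 2 lists each of the 6 genes was called in each line, where 61.8% (4D), 65.7% (4A) and 66% (WT) of genes were called. In replicate 1, 4 STAT genes were called in 4D, 5 in 4A and 5 in WT, where 29% (4D), 32.2% (4A) and 35.8% (WT) of genes were called. Counted by region, 6 of the 35 were called in all 6 libraries, against 9.84% of all regions. At least 1 replicate 1 list held 9 of the 35, against 27.4%, and all 3 replicate 2 lists held 15, against 45.6%.

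**Figure D1:**
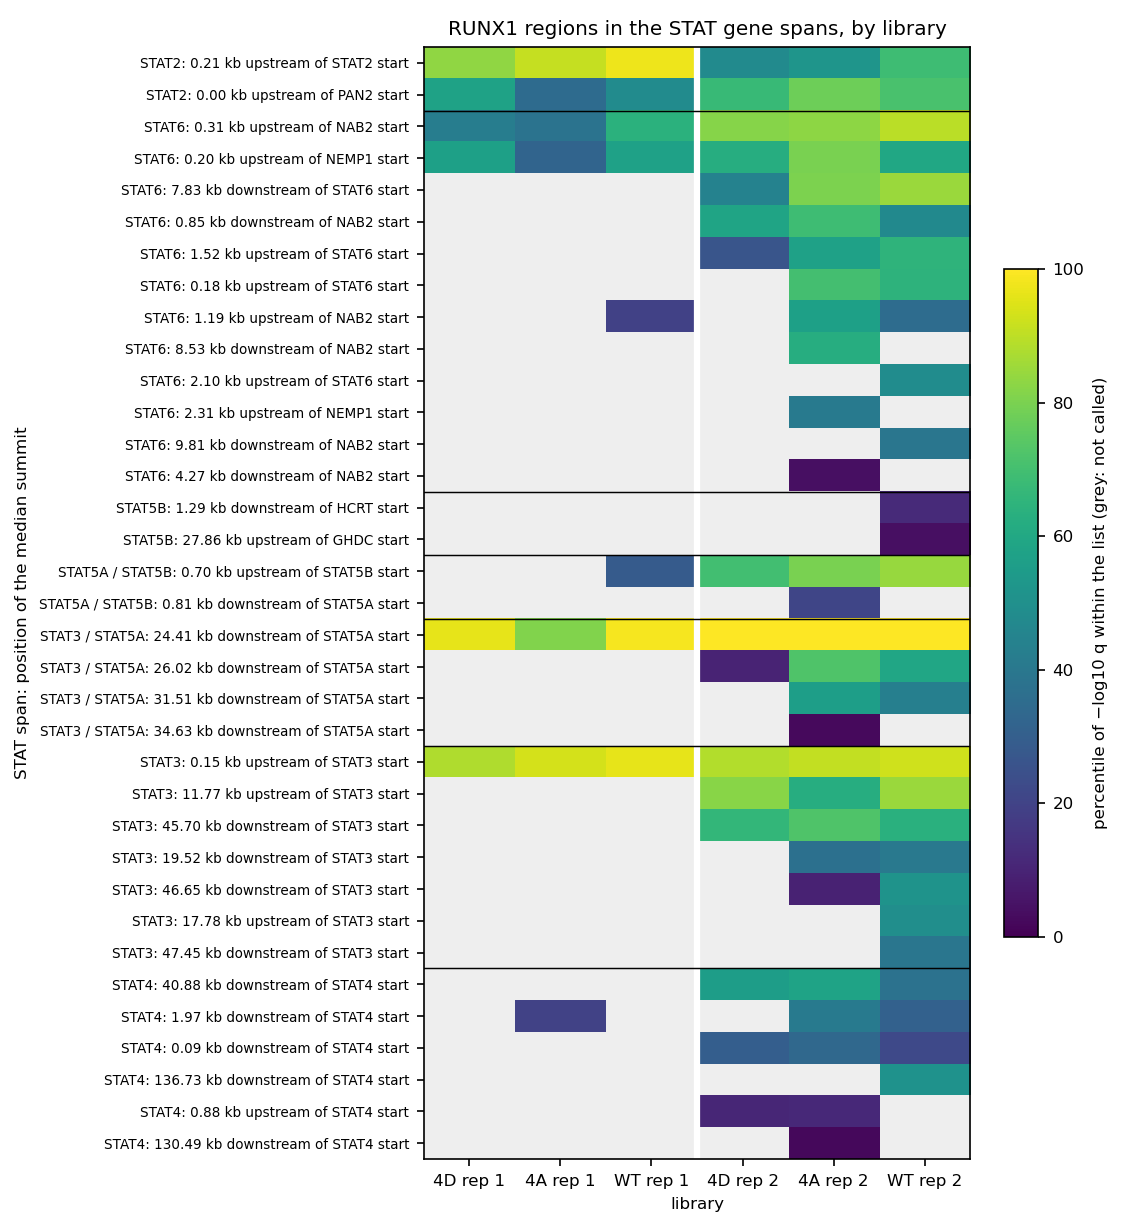
Each row is 1 of the 35 regions in the STAT spans, named by the span and by the distance of its median summit from a gene start, and each column is a library. Colour gives the percentile of the peak's −log10 q within its list and grey means not called. The 6 rows filled in all columns are the regions called in every library, and most other rows are filled only in replicate 2 columns.

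The spans differed in how many regions they held. STAT6, in the smallest span (55.96 kb), had 12 regions, which is 21.4 per 100 kb, and STAT3 had 11, or 9.56 per 100 kb. Of the 12 regions of STAT6, 5 were called in 1 library only, and several lay outside the gene, at or near its neighbours NEMP1 and NAB2. STAT5A had 6 regions (9.30 per 100 kb), STAT4 6 (3.70), STAT2 2 (3.42) and STAT5B 4 (3.10). Over all protein-coding genes the median was 1.88 regions per 100 kb, with quartiles of 0 and 4.48. STAT5B, STAT5A and STAT3 are neighbours on chromosome 17 and their spans overlap, so 6 of the regions belong to 2 genes each and the 3 genes together hold 15.

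**Figure D2:**
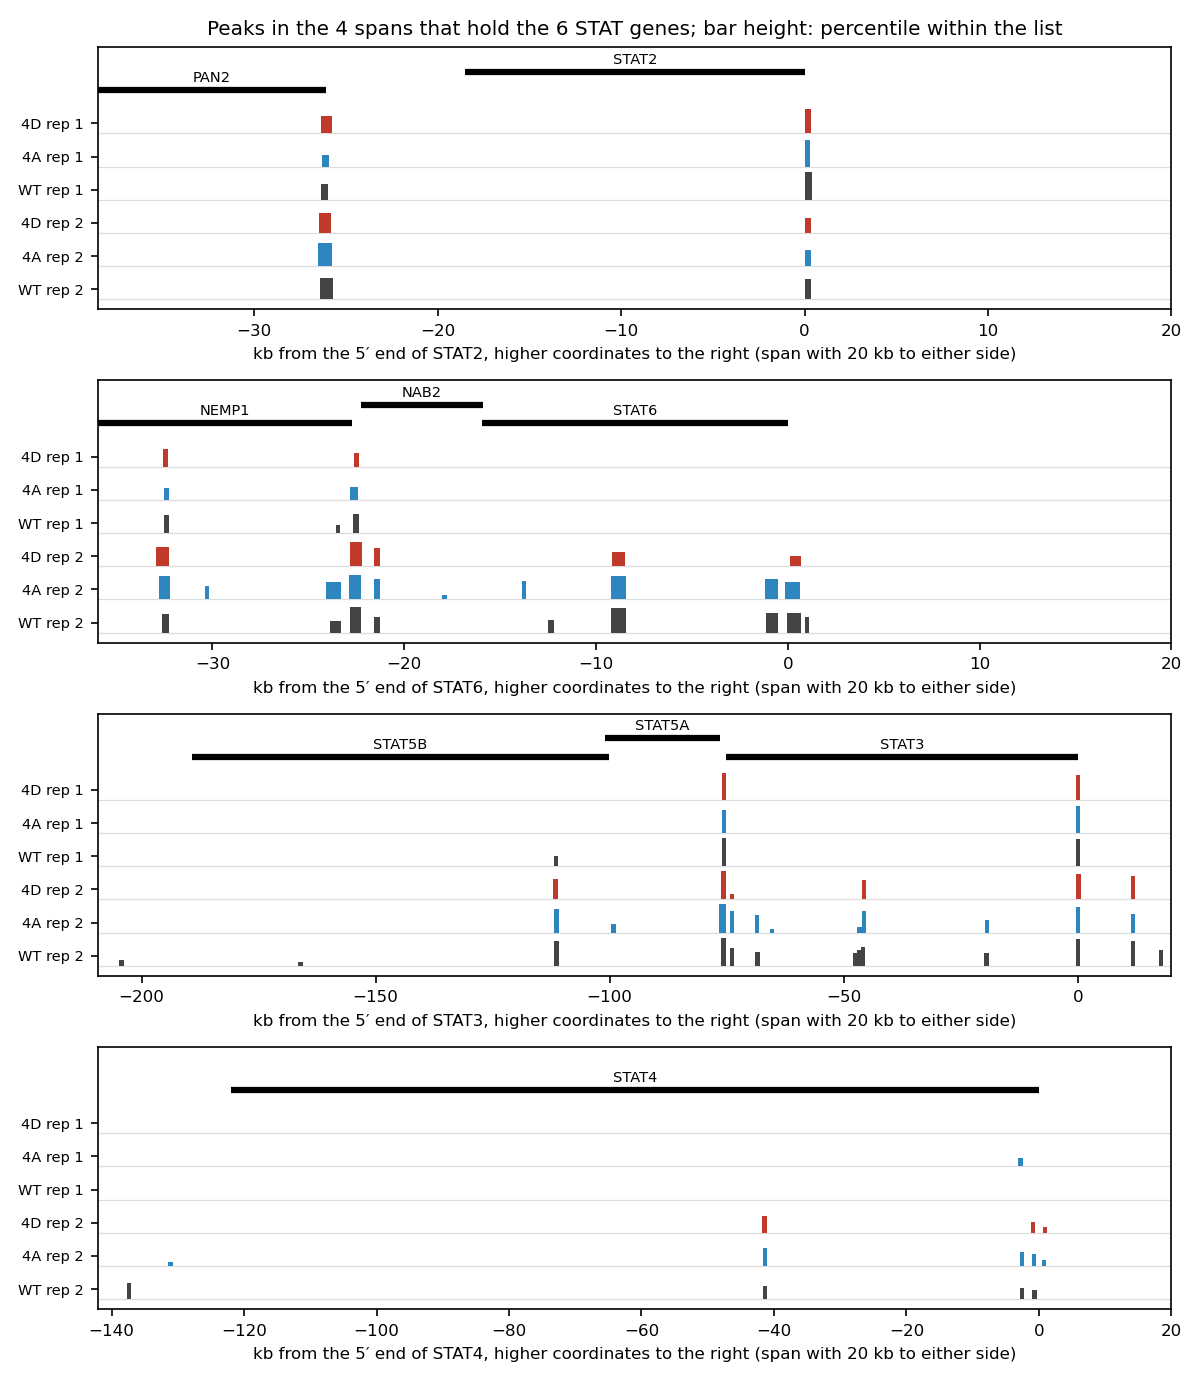
Peaks of the 6 libraries along the 4 stretches of genome that hold the STAT genes, with the distance in kb from the 5′ end of the named gene on the x axis and bar height for the percentile within the list. Black bars are genes. The span of STAT2 holds peaks at 2 places in every library, whereas the 15 regions of the STAT5B, STAT5A and STAT3 stretch are mostly from replicate 2.

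The strongest region of the family lay between STAT5A and STAT3 (chr17:42311745-42313334). STAT5A reads towards it from the plus strand and STAT3 from the minus strand, so it lies between the 3′ ends of the genes, its median summit 0.960 kb beyond that of STAT5A and 0.421 kb beyond that of STAT3. The −log10 q was 33.6 and 209 in the 4D replicates, 19.3 and 335 in 4A, and 72.3 and 258 in WT. Replicate 2 was the higher in each line, and the 3 lines overlapped. The peak held rank 31 (4D), 5 (4A) and 10 (WT) in the replicate 2 lists and rank 199, 1196 and 99 in the replicate 1 lists. Fold enrichments ranged from 7.79 in 4A replicate 1 to 40.1 in WT replicate 2. The 6 summits fell within 78 bp of each other. Ordered by the mean percentile over the libraries, it was number 222 of the 3295 regions called in all 6.

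At the STAT3 promoter a region was called in every library (chr17:42388230-42388811), its median summit 0.154 kb before the start. Its −log10 q was 20.8 and 40.1 in 4D, 33.8 and 48.4 in 4A, and 52.6 and 54.7 in WT. On this scale the WT values lay above those of 4D and 4A, which overlapped each other. Fold enrichments were 12.4 and 11.1 in 4D, 15.2 and 11.1 in 4A, and 20.4 and 15.1 in WT. By fold, WT replicate 2 lay just below 4A replicate 1, as it did by percentile (92.9 against 93.4). Within each replicate number WT was the highest on each of these scales. Here the replicate 1 peak had the higher fold in each line. The percentiles lay between 88.2 and 96.4, and the summits within 46 bp. Summits stood 19 and 19 bases from the RUNX site printed above in 4D, 10 and 31 in 4A, and 56 and 19 in WT, in each case on its gene side.

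The STAT2 promoter was likewise called in every library (chr12:56360117-56360529), with a median summit 0.214 kb before the start. Fold enrichments were 11.7 and 3.70 in 4D, 15.5 and 3.35 in 4A, and 25.3 and 5.54 in WT. Every replicate 1 value lay above every replicate 2 value, and within each number WT was the highest. The −log10 q was 17.3 and 9.78 in 4D, 29.8 and 10.6 in 4A, and 59.9 and 18.3 in WT, so that WT replicate 2 fell among the 4D and 4A values. In the replicate 1 lists the peak reached percentiles of 83.3 (4D), 91.3 (4A) and 97.4 (WT), and in the longer replicate 2 lists 48.0, 52.2 and 69.1. Its summits stood 97 and 16 bases from the printed RUNX site in 4D, 53 and 11 in 4A, and 21 and 4 in WT, again on the gene side.

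**Figure D3:**
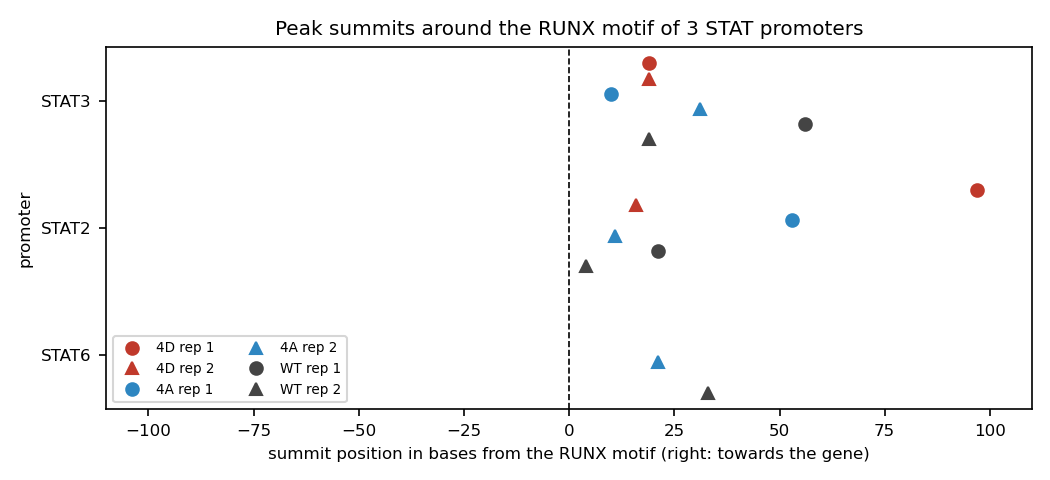
Distance in bases of each peak summit from the RUNX motif (dashed line) of the STAT3, STAT2 and STAT6 promoters, with positive values towards the gene, circles for replicate 1 and triangles for replicate 2. Every plotted summit lies between 4 and 97 bases to the gene side of the motif. The called regions extend beyond the windows searched, and other matches were not sought there.

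The other region called in all libraries in the span of STAT2 lay at the start of PAN2, which encodes a subunit of a poly(A)-shortening enzyme (chr12:56333567-56334372). It was 7.59 kb beyond the 3′ end of STAT2. Its −log10 q was 9.07 and 16.7 in 4D, 6.03 and 24.5 in 4A, and 10.2 and 19.6 in WT, with the higher value in replicate 2 of each line. Fold enrichments stayed between 6.11 and 8.44. No further region was called in this span.

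STAT6 had both of its regions called in all libraries at the starts of neighbouring genes. The first (chr12:57088488-57089147) lay 0.309 kb before the start of NAB2, a corepressor of EGR factors, and 6.60 kb beyond the 3′ end of STAT6. Its −log10 q was 6.62 and 28.8 in 4D, 6.64 and 30.7 in 4A, and 14.6 and 43.8 in WT. Replicate 2 was higher throughout, and within each number WT was the highest. The second (chr12:57078433-57079177) lay at the start of NEMP1, a protein of the inner nuclear membrane, 16.4 kb beyond the 3′ end of STAT6, with −log10 q of 8.76 and 14.4 in 4D, 5.70 and 26.8 in 4A, and 12.5 and 13.7 in WT. The promoter windows of PAN2, NEMP1 and NAB2 did not contain TGTGGT or TGCGGT. The summits at NAB2 lay outside that gene's window, so the bases under them were not searched. In all, 5 of the 6 regions called in every library lay within 1 kb of a gene start, 2 of them that of a STAT gene, whereas 39.4% of all regions called in the 6 libraries did.

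**Figure D4:**
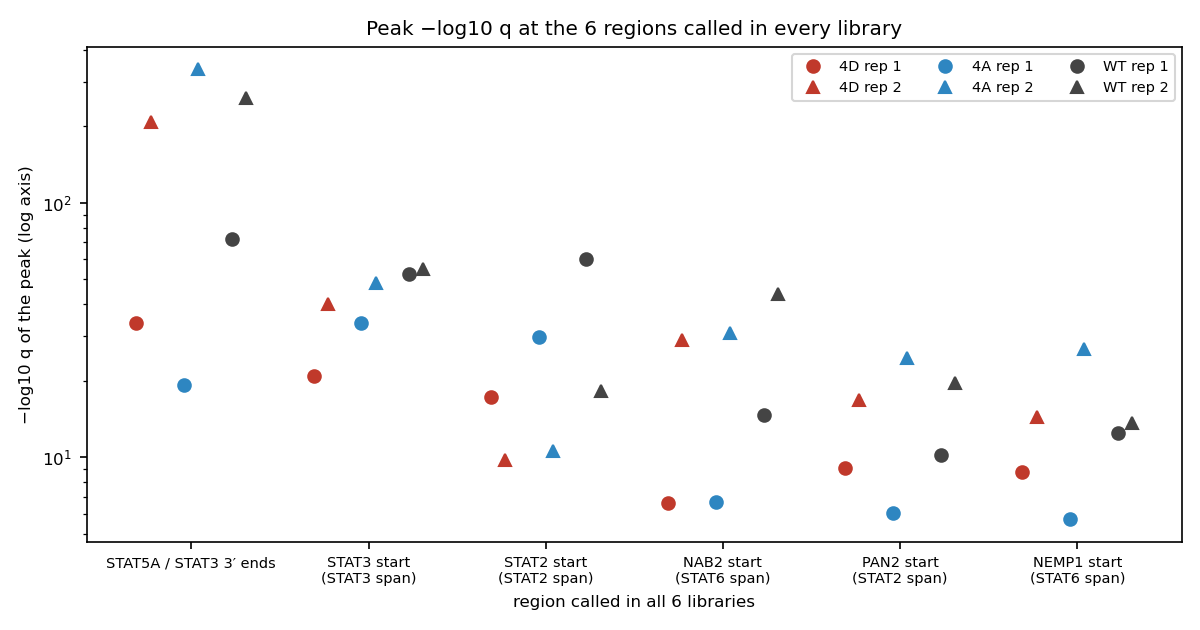
The −log10 q of the peak in each library at the 6 regions called in every library, on a log axis, with circles for replicate 1 and triangles for replicate 2. The region between STAT5A and STAT3 reaches 335 in 4A replicate 2, while at the STAT2 start the replicate 1 values lie above the replicate 2 values in each line.

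The promoter of STAT6 itself was called in fewer libraries. A region over it (chr12:57110192-57110877) was found in 4A replicate 2 and WT replicate 2, with −log10 q of 18.3 (4A) and 15.8 (WT), at percentiles of 69.9 and 64.6. The 4D lists and the replicate 1 lists did not contain it. The summits stood 21 bases (4A) and 33 bases (WT) from the printed RUNX site. The next region (chr12:57111227-57112070), 0.443 kb beyond the annotated 5′ end of the gene, was called in the 3 replicate 2 lists, with −log10 q of 5.33 in 4D, 12.2 in 4A and 16.0 in WT. Inside the gene, 7.83 kb from the start, lay a region with −log10 q of 8.87 in 4D, 27.2 in 4A and 33.9 in WT replicate 2 (chr12:57102145-57102939). At both of these the 4D value was the lowest of the 3.

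STAT5A and STAT5B, near-identical factors that arose by gene duplication, were called unequally. The strongest region of STAT5B (chr17:42276292-42277606) reached over its promoter window, with a median summit 0.699 kb before the start that RefSeq's promoter table gives, which lies inside the longer annotated gene. It was called in 4D replicate 2 (−log10 q 18.2), 4A replicate 2 (26.5), and WT replicates 1 and 2 (6.57 and 33.2). Its summits were spread over 442 bp, the widest range among the 35 regions. The same region lies 10.3 kb from the 5′ end of STAT5A and also falls in that gene's span. At STAT5A's 3 annotated starts the promoter windows overlapped no region, and the nearest region, 0.807 kb after the last of these starts, was called only in 4A replicate 2 (−log10 q 4.23). The other regions called only at STAT5B came from WT replicate 2 alone, with −log10 q of 3.33 and 2.30.

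STAT4, known mainly from T and NK cells, had no region called in all libraries. Its strongest region by mean percentile lay within the gene 40.9 kb from a start (chr2:191109955-191110506), with −log10 q of 12.0 in 4D, 12.5 in 4A and 7.44 in WT replicate 2. Another overlapped the window of a STAT4 start (chr2:191150574-191151074), where the replicate 2 peaks reached 6.001 in 4D, 6.28 in 4A and 4.71 in WT on the same scale. Neither was called in a replicate 1 list. In percentiles these peaks lay between 21.95 and 58.2.

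At STAT3, 3 further regions were called in each replicate 2 list and in no replicate 1 list, and over all the STAT spans 8 of the 35 regions had this pattern, against 22.3% of all regions. The region 11.8 kb before the STAT3 start (chr17:42399961-42400454) had −log10 q of 29.2 in 4D, 14.1 in 4A and 33.9 in WT, and that inside the gene 45.7 kb from the start (chr17:42342280-42342938) 16.3, 19.9 and 15.3. A region just inside the 3′ part of STAT3 (chr17:42314310-42314741) had 2.95 in 4D, against 19.9 in 4A and 13.4 in WT. Of the remaining regions of the family, 13 were called in 1 library only, against 34.5% of all regions. Of these 0 were in 4D replicate 2 alone (6.92% of all regions), 6 in 4A replicate 2 alone (12.6%) and 7 in WT replicate 2 alone (13.6%). The replicate 1 lists each had 0, against 0.364% (4D), 0.723% (4A) and 0.257% (WT). The replicate 2 lists of 4A and WT, without that of 4D, held 6 regions, against 10.1% of all regions. Those of 4D and WT without 4A held 0, against 6.24%, and those of 4D and 4A without WT held 1, against 2.13%. Regions called in 1 library had a median width of 211 bp, and those called in all 6 a median width of 702.5 bp. A region runs to the outer ends of its merged peaks, so merging more libraries can only widen it and these widths are not comparable. At the STAT3 promoter, for example, the single replicate 1 peaks were 204 bp (4D), 219 bp (4A) and 222 bp (WT) wide.

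The lines were compared by the number of STAT regions called per library, the question being whether the mutant forms occupy these genes as WT does. The number was 6 and 16 in the 4D replicates, 7 and 28 in 4A, and 8 and 28 in WT, giving means of 11 ± 7.07 in 4D, 17.5 ± 14.8 in 4A and 18 ± 14.1 in WT (SD, n = 2). The difference of 4D minus WT was −7 (two-sided exact permutation p = 0.667), that of 4A minus WT −0.5 (exact p = 1) and that of 4D minus 4A −6.5 (exact p = 0.667). With 2 libraries against 2 the smallest p possible is 0.333, so no difference could pass. The SDs exceeded the differences, but each SD spans a short replicate 1 list and a long replicate 2 list, so it does not measure the spread of like libraries. Within replicate 1 the difference of 4D minus WT was −2, and within replicate 2 it was −12.

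**Figure D5:**
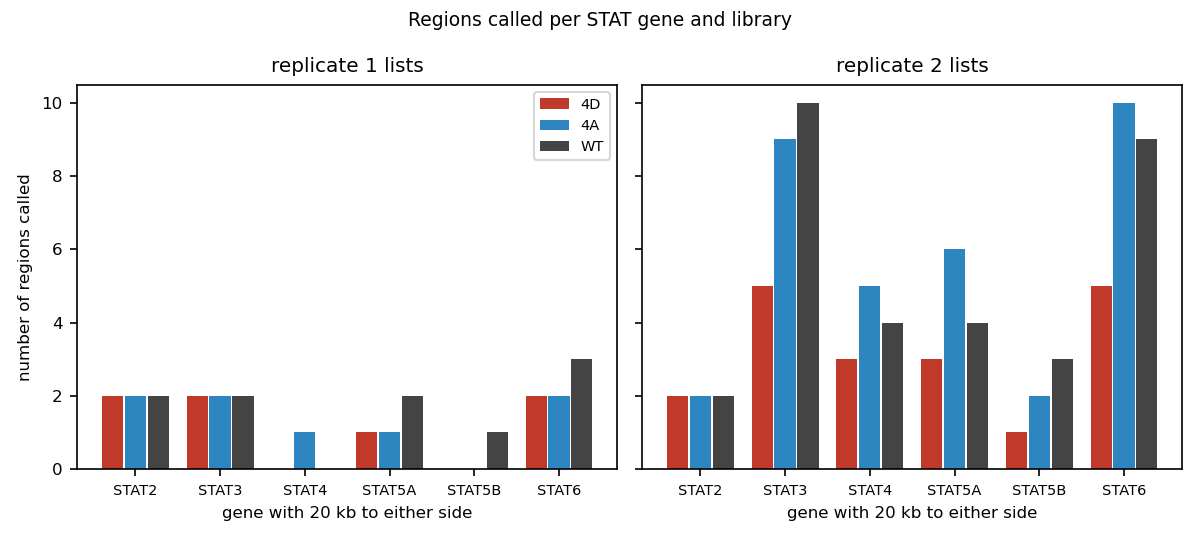
Number of regions called per STAT gene with 20 kb to either side, for the replicate 1 lists and the replicate 2 lists, with a bar for each line. STAT3 and STAT6 have 5 regions each in 4D replicate 2, against 9 and 10 in 4A and 10 and 9 in WT, and STAT2 has 2 in every library.

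The fewer regions of 4D replicate 2 came from several genes. STAT3 had 5 regions in 4D replicate 2, against 9 in 4A and 10 in WT, and STAT6 had 5, against 10 and 9. Of the 16 regions of 4D replicate 2, 15 were shared with WT replicate 2, which is 93.8% of the 4D regions and 53.6% of the WT regions. Over the whole lists the shares were 84.8% of the 4D regions and 68.3% of the WT regions. Against 4A replicate 2, 16 of 16 were shared, which is 57.1% of the 4A regions. The 13 regions of WT replicate 2 that 4D replicate 2 lacked had a median percentile of 40.3 (4.15 to 64.6) in the WT list, and the 15 shared regions a median of 69.1 (21.95 to 99.96). With the lists shortened to equal lengths within each number the replicate 2 counts were 16 in 4D, 23 in 4A and 26 in WT.

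Asking for both libraries of a line and neither of another left few regions. Found in WT and not 4D was 1 region of the 35, against 0.472% of all regions, and found in 4A and not 4D was 1, against 0.669%. The first lay 1.19 kb before the start of NAB2 in the span of STAT6 (chr12:57087311-57088086), with −log10 q of 12.0 in 4A replicate 2, against 5.02 and 6.97 in the WT libraries. It was not found so with lists of equal length. The second lay inside STAT4, 1.97 kb from a start (chr2:191148625-191149195), with −log10 q of 4.18 and 7.74 in 4A and 6.27 in WT replicate 2. With a minimum −log10 q of 5 it was no longer found so. The other 4 directions (4D and not WT, 4D and not 4A, 4A and not WT, WT and not 4A) gave 0 STAT regions, against 0.114%, 0.314%, 0.206% and 0.269% of all regions.

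Among the genes most like STAT3 in the highest percentile of the span in each of the 6 libraries were ZFPM1, the GATA1 cofactor, with a mean absolute difference of 0.624 percentile points, and GRAMD1A, with 0.752. For STAT3 the percentiles were 96.3 and 99.9 in 4D, 93.4 and 99.98 in 4A, and 98.5 and 99.96 in WT, and for ZFPM1 they were 99.2 and 99.9, 93.2 and 99.7, and 98.8 and 99.9. Over the family the mean of this highest percentile was 98.0 for STAT3, 95.9 for STAT5A, 81.4 for STAT2, 68.9 for STAT6, 43.8 for STAT5B and 30.8 for STAT4. For STAT3 and STAT5A the highest peak was that of the region they share, except in 4A replicate 1, where for STAT3 it was the promoter peak.

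Around the STAT genes, 59 genes of the JAK-STAT pathway were counted in 5 role lists, of which 25 (4D), 32 (4A) and 36 (WT) were called and 23 had a region in all 6 libraries. By the same rules 28% (4D), 31.1% (4A) and 34.9% (WT) of all protein-coding genes were called, and 21% had a region in all 6 libraries. Of the 59 genes, 5 had no region in any library. Of the 4 kinases, none had a region called in all 6 libraries. JAK1, JAK2, JAK3 and TYK2 were all called in WT, JAK1 and JAK3 in 4A and none in 4D, but each was called in 4D replicate 2 and none in the shorter 4D replicate 1. Of 25 cytokine receptors 8 (4D), 12 (4A) and 12 (WT) were called, among them EPOR, CSF3R and CSF2RB, the receptors or receptor chains for erythropoietin, G-CSF and the interleukin 3 family. The CSF3R region (chr1:36492306-36493471) had −log10 q of 33.3 and 218 in 4D, 37.0 and 172 in 4A, and 36.0 and 222 in WT. The CSF2RB region in all 6 libraries was weaker, at 4.72 and 27.5 in 4D, 2.57 and 58.9 in 4A, and 5.02 and 50.6 in WT.

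Inhibitors of the pathway were called at 6 (4D), 7 (4A) and 9 (WT) of 16. For these and the lists below, the shares of all protein-coding genes were 28% (4D), 31.1% (4A) and 34.9% (WT). SH2B3, an adaptor that restrains JAK2, and PTPN6, a tyrosine phosphatase of blood cells, had 3 regions each in all 6 libraries, and CISH and SOCS2, feedback inhibitors induced by STAT5, had 1 each. The partner genes IRF9, which joins STAT2 in the interferon-induced complex, and CREBBP, EP300 and NCOA1, which encode coactivators, were 4 of 4 called in each line. Some of these calls were weak in replicate 1. The CREBBP region in all 6 libraries had −log10 q of 1.49 (4D), 3.52 (4A) and 5.66 (WT) there. That of NCOA1 had 3.66, 4.31 and 8.49, and that of EP300 11.9, 16.0 and 31.4. IRF9 had 2 regions in all 6 libraries, the stronger (chr14:24146309-24147561) with −log10 q of 27.6 and 42.9 in 4D, 38.7 and 45.3 in 4A, and 51.7 and 33.1 in WT. Of 10 target genes of STAT factors 7 were called in each line, with 3 regions in all 6 libraries at CCND3, 2 each at PIM1 and CCND2 and 1 at BCL2L1. CCND2 and CCND3 encode D-type cyclins, PIM1 a survival kinase and BCL2L1 the anti-apoptotic BCL-XL.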

How the data were processed

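CUT&RUN libraries of HA-tagged RUNX1 were made from 500000 cells each, permeabilized with 0.01% digitonin and amplified for 12 PCR cycles, per the labels' protocols. Per the submitters' processing notes, the work used hg38 with MACS2 2.2.7.1, Bowtie2 2.4.2, deepTools 3.5.1, cutadapt 3.4 and Picard 2.25.6, and their settings are not given in the sources used here. Each deposited list gives per peak a fold enrichment over the empty vector background (a linear ratio), its p-value and q-value as −log10, a whole-number score and a summit offset, all by the authors. Peaks were called per library, and whether the empty vector replicates were pooled is not stated.

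Only chromosomes 1 to 22, X and Y were used, and peaks were merged into regions wherever they overlapped by 1 bp, and a region was called in a library that had a peak in it. A line counts as called where both of its libraries are. Gene spans came from the RefSeq table of GRCh38.p14, and starts, strands and promoter sequences from the RefSeq promoter table, which matched all 6 genes. Sequence was read only in those promoter windows. The number of regions per library was compared by an exact permutation test over libraries, and all other values are counts and descriptions. The merging and counting steps were tested on simulated peaks with known patterns. Python 3.11.15, pandas 2.3.3 and numpy 2.4.6 were used.

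Named regions were those called in all 6 libraries, the strongest of each gene by mean percentile (0 where not called) and those found in both libraries of a line and neither of another. Other regions were named after their values were seen. In each pathway list up to 4 genes with most regions in all 6 libraries were named. The 3 genes nearest STAT3 in mean absolute difference of percentiles were sought. Some genes that these rules select are not reported here. The members and lists were chosen with earlier results of these data known. Alternatives were a summit inside the span, a flank of 10 kb, a minimum −log10 q of 5, equal list lengths within replicate numbers, windows of 150 bp around summits, each replicate left out and the replicate number as a block.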

Additional observations from a re-analysis of the deposited data

How the results depend on the processing

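Of 99 counts recomputed under other settings, 84 stayed within 1.5 times of the count reported. These include counts of 0 that stayed at 0, as for regions in 4D and not 4A under every setting. They also include a change from 4 to 6 STAT genes called in 4D without replicate 1. Of 24 recomputed differences in regions per library, 22 kept their sign, though several changed in size. Leaving out each replicate of every line in turn gave 6 to 16 called regions in 4D, 7 to 28 in 4A and 8 to 28 in WT, and 6 to 15 regions in all libraries that remained. Without a replicate, the regions found in 1 line and not another ranged from 0 to 1 (4D and not WT), 2 to 13 (WT and not 4D), 1 to 7 (4A and not WT), 2 to 7 (WT and not 4A), 1 to 12 (4A and not 4D) and stayed at 0 (4D and not 4A). Also without a replicate, the difference in regions per library ranged from −12 to −2 (4D minus WT), from −1 to 0 (4A minus WT) and from −12 to −1 (4D minus 4A). With a flank of 10 kb the difference of 4A minus WT was 0.5 instead of −0.5 (exact p = 1). It was −2.5 with a −log10 q of at least 5 (exact p = 0.667) and −1.5 with lists of equal length (exact p = 1), and under both of these settings 4D minus 4A was −4 (exact p = 1 and 0.667) instead of −6.5. The other settings left 4D minus WT between −7 and −5.5. Regions in WT and not 4D numbered 0 with lists of equal length, and regions in 4A and not 4D 0 with a −log10 q of at least 5, which also left 16 pathway genes called in 4D. The causes were not tested. With the replicate number as a block, permuting within numbers, the differences were unchanged at −7, −0.5 and −6.5, with exact p of 0.5, 1 and 0.5, where 0.5 is the smallest possible. The labels do not say that equal numbers share a batch. Read depth is unknown, and the replicate 1 lists limit which regions can be called in both libraries of a line.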
